A study of Mus musculus with 6 samples.

Results

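Glucose entry and upper glycolysis were represented by 10 transcripts, taken by gene name from the 22880 genes of the deposited table. They were the glucose transporters Slc2a1 and Slc2a3, the hexokinases Hk1 and Hk2, glucose phosphate isomerase (Gpi1), the phosphofructokinases Pfkl, Pfkp and Pfkm, and the bifunctional regulators Pfkfb3 and Pfkfb4. All 10 were among the 12014 genes tested. The cells were MC-38 GFP, a mouse colon adenocarcinoma line carrying green fluorescent protein, sorted from tumors grown orthotopically in the cecum wall of C57BL/6J mice, and the sort had removed cells with CD45 (leukocytes) or CD31 (endothelium). HIF-1α-KD cells carried a stable knock-down of HIF-1α and Mock cells were their control. Cells of both groups had been transduced with pLKO.1-puro and had not been passaged in vivo, and 3 libraries were available per group. The labels do not say whether a library is from a single tumor, so the p-values measure the spread between these libraries.

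Glucose crosses the plasma membrane through facilitative transporters and is trapped in the cell when a hexokinase phosphorylates it. Glucose phosphate isomerase then turns glucose 6-phosphate into fructose 6-phosphate, and phosphofructokinase commits it to glycolysis. HIF-1 is a transcription factor made of the oxygen-regulated subunit HIF-1α and its partner ARNT, and genes of glycolysis are among its best-known targets in hypoxic tumors.

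Reads on genes ranged from 19845852 to 30809139 per library. The targeted gene, Hif1a, had 6914, 5424 and 4945 normalized counts (reads divided by one factor per library) in Mock replicates 1, 2 and 3. After knock-down it had 697.3, 3142 and 1928, so the groups did not overlap and HIF-1α-KD replicate 2 kept the most transcript (log2 fold change -1.82, SE 0.46, adjusted p = 0.219 by limma). With a library left out this estimate ranged from -2.30 (without HIF-1α-KD replicate 2) to -1.21 (without HIF-1α-KD replicate 1). Of the 7 epithelial markers, 5 were too low to be tested, and the summed normalized count of all 7 was between 64.12 and 519.5 in Mock libraries, with the highest value in Mock replicate 3. It was between 72.77 and 116.6 in HIF-1α-KD libraries, so epithelial transcripts marked these adenocarcinoma cells only weakly. The 10 leukocyte markers summed to between 3819 and 4000 in Mock and between 2452 and 12730 in HIF-1α-KD libraries, highest in HIF-1α-KD replicate 3. Lyz2 made up most of each sum, and Cd3e was under 10 reads in every library. Red cell markers summed to between 537.8 and 1306 in Mock and between 1.199 and 514 in HIF-1α-KD libraries, and all 4 were lower at an unadjusted p under 0.05 and a difference of at least 1.5-fold (3.46% of all genes). Fibroblast markers ranged from 31280 to 49990 in Mock and from 23320 to 37610 in HIF-1α-KD libraries, and Dcn made up most of each sum. Of the 6 fibroblast estimates, 2 were below 0 (log2 fold change -0.38 for Dcn and -0.16 for Lum). Endothelial markers ranged from 504.8 to 616 and from 309.5 to 483.2, mostly Cdh5. Of the 3 tested, Cdh5 alone was below 0 (log2 fold change -0.84), with Pecam1 at 0.26 and Tek at 1.26. Muscle markers ranged from 147.7 to 242.8 and from 179.1 to 345.8. The endothelial marker Emcn was under 10 reads in every library and the muscle marker Myog was at 0. The part of these cells in the results was not tested.

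The transcripts of GLUT1, glucose phosphate isomerase and liver-type phosphofructokinase were lower in HIF-1α-KD than in Mock cells. Of the 10 transcripts, 3 were lower at a limma adjusted p under 0.05, namely Slc2a1, Pfkl and Gpi1, compared with 0.383% of all genes tested. At that threshold 0 were higher by limma (0.00832% of all genes), edgeR (0%) or DESeq2 (0.799%). None was higher at an unadjusted p under 0.05 by limma, which 12.7% of all genes met in either direction. The count was 1 (Slc2a1) without Mock replicate 2 or HIF-1α-KD replicate 1, 0 without any one of the other libraries and 0 with a replicate block. The Wald test of DESeq2 called 5, with Pfkp and Hk1 added, and by that test 1.56% of all genes were lower. In the limma fit another 3, Pfkp, Hk1 and Hk2, met only a looser rule, an unadjusted p under 0.05 together with at least a 1.5-fold difference. This rule was thus met by 6 of 10 in the lower direction and by 0 in the higher one, compared with 3.46% and 4.02% of all genes. All HIF-1α-KD libraries lay below all Mock libraries for 6 transcripts (as for 8.75% of all genes) and above them for 1 (as for 10.4% of all genes). The median log2 fold change of the 10 was -0.72, and that of all genes tested was 0.02. In bulk RNA, fewer cells expressing a gene and less transcript per cell cannot be told apart.

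**Figure D1:**
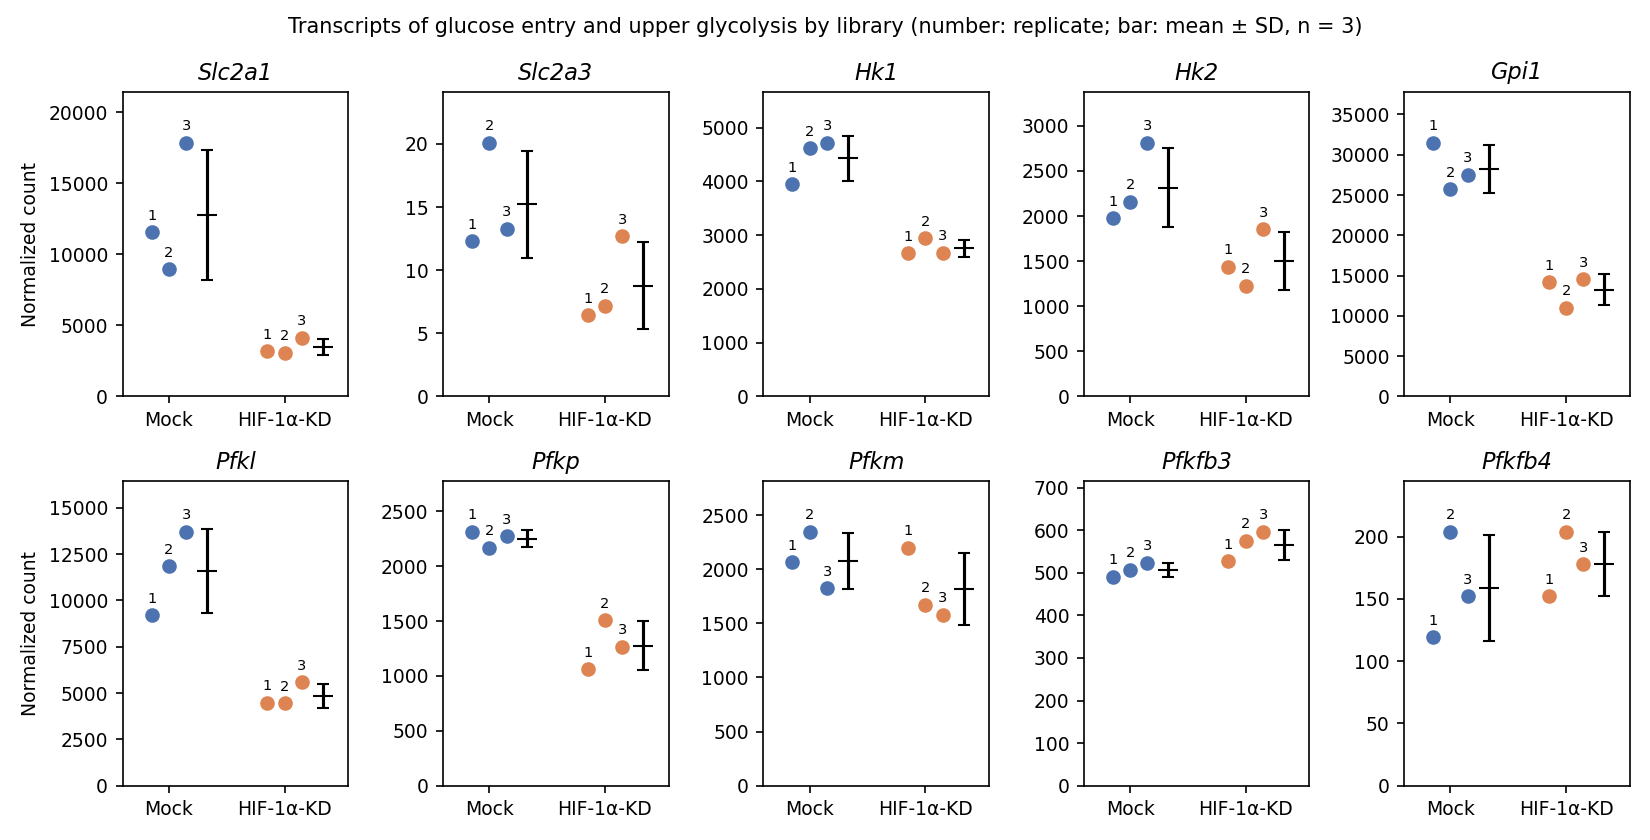
Normalized counts (reads divided by one factor per library) of the 10 transcripts in each Mock and HIF-1α-KD library, on a linear axis of its own for each gene, with the replicate number at each point and the mean ± SD (n = 3) at its right. Points of the groups are apart for Slc2a1, Hk1, Hk2, Gpi1, Pfkl and Pfkp in the lower direction, while Slc2a3, Pfkm and Pfkfb4 overlap and Pfkfb3 lies slightly higher in HIF-1α-KD cells.

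Slc2a1 (ENSMUSG00000028645, GRCm38 chr4:119108711-119137983, plus strand) encodes GLUT1, the transporter behind basal glucose uptake in most cells. Mock replicates 1, 2 and 3 had 11550, 8963 and 17860 normalized counts, against 3187, 3091 and 4145 in HIF-1α-KD replicates 1, 2 and 3. The groups did not overlap, and even the lowest Mock library was 2.16 times the highest HIF-1α-KD library. The mean fell from 12790 ± 4576 to 3474 ± 583 (SD, n = 3), or to 27.2% of Mock. On the log2 scale this was a change of -1.83 (SE 0.25, adjusted p = 0.0254 by limma), with a 95% confidence interval of -2.40 to -1.27. It ranked 61 from the most negative of the 12014 genes tested. The Mock libraries differed widely among themselves, with a coefficient of variation of 35.8%, and Mock replicate 3, the library with the highest epithelial marker sum, was the highest. Without this library the log2 fold change was -1.56 (limma adjusted p = 0.0898). The adjusted p was also above the threshold without Mock replicate 1 (0.109), without HIF-1α-KD replicate 2 (0.0975) and without HIF-1α-KD replicate 3 (0.0576), with log2 fold changes of -1.88, -1.76 and -1.97.

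HIF binds DNA at a short core that reads ACGTG or GCGTG. These letters were searched on both strands of the windows from 250 bases before to 50 bases after a transcription start given by RefSeq (GRCm38.p6). The window of Slc2a1 (chr4:119108495-119108794, plus strand) is shown because it is the strongest decrease among the 10, with the letters found in capitals.

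Slc2a1: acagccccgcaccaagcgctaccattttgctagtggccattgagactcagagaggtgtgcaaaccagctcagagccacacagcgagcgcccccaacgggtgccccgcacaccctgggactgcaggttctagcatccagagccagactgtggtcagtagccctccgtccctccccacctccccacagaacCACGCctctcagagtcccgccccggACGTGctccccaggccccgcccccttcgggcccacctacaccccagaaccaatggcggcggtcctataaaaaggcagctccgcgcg

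It held GCGTG on the minus strand at positions -61 to -57, printed as its reverse complement, and ACGTG on the plus strand at -36 to -32, counted from the start. A match is a string of letters and does not show that the factor was bound.

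Slc2a3 (ENSMUSG00000003153, chr6:122727809-122801640, minus strand) encodes GLUT3, a transporter of high affinity known best from neurons. It was close to the detection limit, with 10, 21 and 11 reads in Mock and 8, 6 and 11 after knock-down. As normalized counts these were 12.31, 20.1 and 13.29 against 6.434, 7.194 and 12.71, and the groups overlapped. A log2 fold change of -0.75 (SE 0.53, adjusted p = 0.587 by limma) came with an interval of -1.96 to 0.45, so a difference was not detectable at this depth. Slc2a1 held 99.9% of the summed FPKM (the authors' count per length and per library size) of the transporter pair in Mock and 99.8% in HIF-1α-KD cells.

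Hk1 (ENSMUSG00000037012, chr10:62268855-62379908, minus strand) encodes the hexokinase present in most tissues. Mock replicates held 3950, 4621 and 4719 normalized counts and knock-down replicates 2661, 2938 and 2675. All 3 HIF-1α-KD libraries lay below the lowest Mock library, and the mean went from 4430 ± 419 to 2758 ± 156 (SD, n = 3), which is 62.3% of Mock. This log2 fold change of -0.68 (SE 0.14) had an unadjusted p of 0.000792 in the limma fit and did not pass after adjustment (adjusted p = 0.119). By the Wald test of DESeq2 on the recovered reads it passed, with an adjusted p of 0.0020.

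Hk2 (ENSMUSG00000000628, chr6:82725025-82774454, minus strand) encodes the hexokinase of muscle, fat and many tumors. It had 1975, 2157 and 2813 normalized counts in Mock against 1437, 1225 and 1856 in HIF-1α-KD replicates. The gap between the groups was small, since the lowest Mock library was 1.06 times the highest HIF-1α-KD library. Means of 2315 ± 441 for Mock and 1506 ± 321 for HIF-1α-KD cells (SD, n = 3) gave a log2 fold change of -0.62 (SE 0.20, unadjusted p = 0.0131 and adjusted p = 0.294 by limma). It no longer met the looser rule without Mock replicate 3 (log2 fold change -0.48) or without HIF-1α-KD replicate 2 (-0.49). Scaled by library size alone, its groups overlapped and its log2 fold change of -0.57 missed the 1.5-fold limit.

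The estimates for Hk1 and Hk2 lay close together. Their FPKM ratio, Hk2 to Hk1 on the log2 scale, was -1.85, -1.95 and -1.60 in Mock and -1.74, -2.12 and -1.38 after knock-down, with overlap of the groups. The difference of 0.06 was not distinguishable from 0 (exact permutation test, two-sided, p = 0.9). Hk2 made up 22.3% ± 2.22 of hexokinase FPKM in Mock and 23.2% ± 4.50 after knock-down (SD, n = 3).

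Gpi1 (ENSMUSG00000036427, chr7:34201330-34230336, minus strand), whose protein links the hexokinase and phosphofructokinase steps, was the most abundant of the 10 per length in both groups. Normalized counts reached 31490, 25700 and 27530 in Mock but 14190, 11020 and 14530 in knock-down replicates. The libraries of each group lay close together and far from those of the other. The mean fell from 28240 ± 2960 to 13250 ± 1936 (SD, n = 3), or to 46.9% of Mock (log2 fold change -1.10, SE 0.16, adjusted p = 0.0327 by limma). The 95% confidence interval was -1.47 to -0.73. Leaving out any single library moved the log2 fold change only between -1.17 and -0.97, but the adjusted p was then between 0.0555 and 0.139, above the threshold in each of the 6 cases.

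The promoter window of Gpi1 (chr7:34230287-34230586, minus strand) is shown beside that of Slc2a1 because the transcript was lower at the same threshold and the window held neither ACGTG nor GCGTG.

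Gpi1: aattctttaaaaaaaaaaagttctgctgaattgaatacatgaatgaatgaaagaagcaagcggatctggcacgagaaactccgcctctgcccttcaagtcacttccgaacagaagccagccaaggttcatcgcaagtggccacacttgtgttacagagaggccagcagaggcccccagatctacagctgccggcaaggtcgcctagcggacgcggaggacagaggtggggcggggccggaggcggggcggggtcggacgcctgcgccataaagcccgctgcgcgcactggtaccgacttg

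The absence of these letters concerns only this window.

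Pfkl (ENSMUSG00000020277, chr10:77986947-78010083, minus strand) encodes the liver type of phosphofructokinase. Mock replicates had 9192, 11840 and 13690 normalized counts, compared with 4470, 4461 and 5593 after knock-down. The groups were well apart, and the mean fell from 11570 ± 2261 to 4841 ± 651 (SD, n = 3), or to 41.8% of Mock. In log2 terms it changed by -1.25 (SE 0.18, adjusted p = 0.0298 by limma), with an interval of -1.66 to -0.84. With single libraries left out the value lay between -1.40 and -1.12, and the adjusted p rose to between 0.0509 and 0.146 in the 6 cases.

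Its promoter window (chr10:78009758-78010057, minus strand) held GCGTG once, on the strand of the gene at -99 to -95, and is shown for the isoenzyme that fell most.

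Pfkl: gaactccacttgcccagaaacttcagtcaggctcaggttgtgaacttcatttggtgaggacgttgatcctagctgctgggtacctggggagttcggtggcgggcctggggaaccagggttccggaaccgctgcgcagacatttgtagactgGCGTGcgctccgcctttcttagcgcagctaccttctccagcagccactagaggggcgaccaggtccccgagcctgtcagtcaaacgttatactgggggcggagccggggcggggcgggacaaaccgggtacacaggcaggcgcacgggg

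Pfkp (ENSMUSG00000021196, chr13:6579768-6648777, minus strand) encodes the platelet type. Its Mock libraries were almost equal, at 2313, 2168 and 2275 normalized counts, a coefficient of variation of 3.34%. The HIF-1α-KD libraries had 1062, 1507 and 1266 and were all lower. Means were 2252 ± 75.2 for Mock and 1278 ± 223 for HIF-1α-KD cells (SD, n = 3), a log2 fold change of -0.83 (SE 0.16, unadjusted p = 0.000669 and adjusted p = 0.110 by limma). The Wald test of DESeq2 gave an adjusted p of 0.0014. Exons of Pfkp overlap those of Pitrm1 on the opposite strand. The libraries were made with a stranded kit, but the counting is not stated to have used strand. The mean normalized count of Pitrm1 was 4463 for Mock and 5045 for HIF-1α-KD cells, so reads of both genes may be mixed in the overlap.

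Pfkm (ENSMUSG00000033065, chr15:98092589-98132451, plus strand) encodes the muscle type and had the smallest estimate of the 3. It gave 2067, 2345 and 1826 normalized counts in Mock against 2197, 1671 and 1582 in knock-down replicates. The groups overlapped, with means of 2079 ± 260 and 1817 ± 332 (SD, n = 3). For the log2 fold change of -0.20 (SE 0.17, adjusted p = 0.663 by limma) the interval was -0.60 to 0.19, and the estimate moved between -0.35 (without HIF-1α-KD replicate 1) and -0.11 (without HIF-1α-KD replicate 3 or Mock replicate 2). Exons of Pfkm overlap Senp1 on the opposite strand, whose mean was 1084 in Mock and 1490 in HIF-1α-KD cells. They also overlap Gm26513 on the same strand, for which no counts were given. Exons of Slc2a1, Hk1 and Gpi1 overlap non-coding genes on the opposite strand too (Gm12868, Hk1os and Gm26762). No counts of these non-coding genes were given, so how many reads they could add is not known.

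In the make-up of phosphofructokinase transcripts, Pfkl took 76.3%, 80.5% and 83.5% of their summed FPKM in Mock replicates 1, 2 and 3 and 70.2%, 68.9% and 75.9% after knock-down, lower in every HIF-1α-KD library. The share of Pfkm was 8.13%, 7.55% and 5.28% in Mock but 16.3%, 12.2% and 10.2% after knock-down, higher in every HIF-1α-KD library. The share of Pfkp was 12.9% ± 2.31 in Mock and 15.4% ± 2.98 after knock-down (SD, n = 3), and these overlapped.

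**Figure D2:**
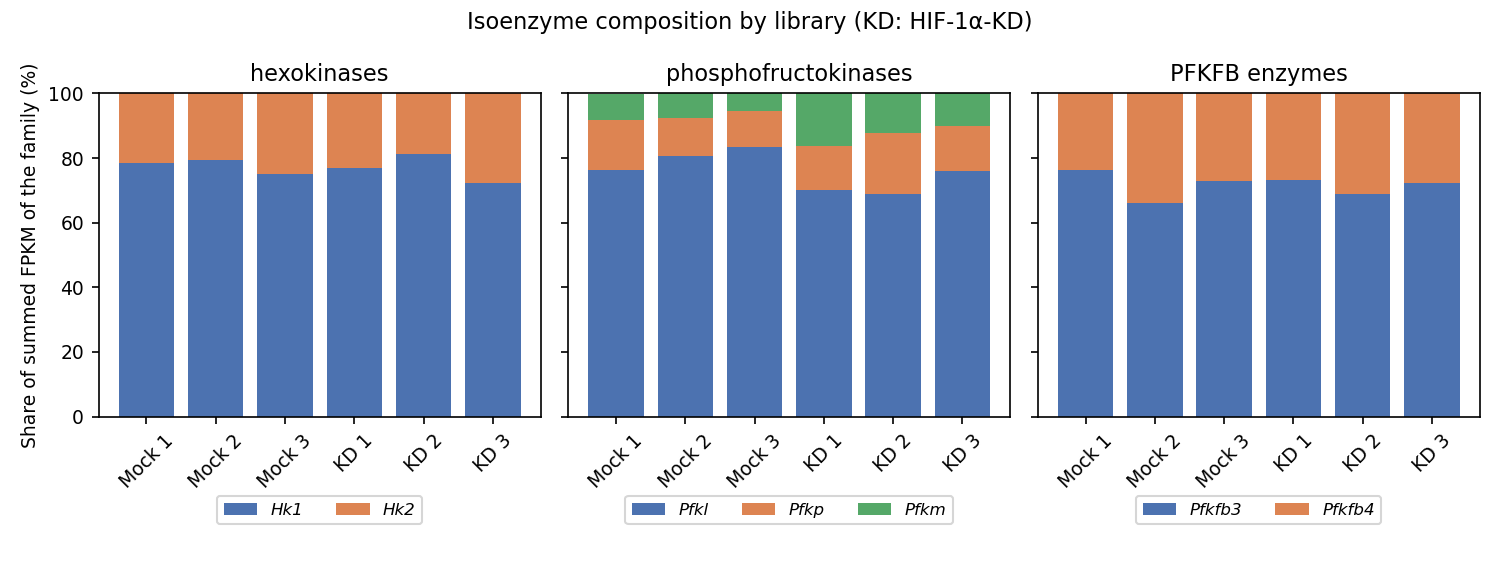
Share of each isoenzyme in the summed FPKM of its family (%, stacked to 100) in the 3 Mock and 3 HIF-1α-KD (KD) libraries, for hexokinases, phosphofructokinases and PFKFB enzymes. The Pfkl segment is shorter and the Pfkm segment longer in every HIF-1α-KD library than in any Mock library, while the hexokinase and PFKFB bars overlap between groups.

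Ratios within a library do not depend on its scaling factor, and 6 of them were compared by two-sided exact permutation tests, which cannot give a p below 0.1 with 3 libraries against 3. The log2 ratio of Pfkl to Pfkm was 3.23, 3.41 and 3.98 in Mock against 2.10, 2.49 and 2.90 after knock-down, without overlap. The geometric mean ratio went from 11.7 to 5.65 (exact permutation test p = 0.1, 0.3 after Benjamini-Hochberg adjustment over the 6 ratios). Pfkp to Pfkm went from 1.86 to 1.2, also without overlap and at the same p values. For Pfkl to Pfkp the log2 difference was -0.42 and the groups overlapped (exact permutation test p = 0.3, adjusted 0.45). Slc2a1 to Slc2a3 differed by -1.01 with overlap (exact permutation test p = 0.2, adjusted 0.4), and its denominator rested on few reads. None of the 6 ratios passed a threshold of 0.05. With a library left out, the log2 difference of Pfkl to Pfkp was as small as -0.24 (without HIF-1α-KD replicate 2), that of Slc2a1 to Slc2a3 -0.65 (without Mock replicate 3) and that of Pfkp to Pfkm -0.36 (without HIF-1α-KD replicate 1), against -0.63 with all libraries.

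Pfkfb3 and Pfkfb4 encode enzymes that make and break down fructose 2,6-bisphosphate, the strongest activator of phosphofructokinase, and both are known as hypoxia-responsive genes. Neither was lower in HIF-1α-KD cells. Pfkfb3 (ENSMUSG00000026773, chr2:11471433-11554077, minus strand) had 491.2, 507.2 and 524.2 normalized counts in Mock against 526.8, 575.6 and 596 in knock-down replicates. The HIF-1α-KD libraries were all slightly higher, with a mean of 566 ± 35.6 against 507.5 ± 16.5 (SD, n = 3), but with TMM scaling the groups overlapped. Its log2 fold change was 0.16 (SE 0.16, adjusted p = 0.713 by limma), with an interval of -0.20 to 0.51.

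Pfkfb4 (ENSMUSG00000025648, chr9:108991778-109032228, plus strand) had 119.4, 203.8 and 152.2 normalized counts in Mock against 152, 203.8 and 177.9 in knock-down replicates. The groups overlapped (log2 fold change 0.19, SE 0.26, adjusted p = 0.803 by limma), with an interval of -0.41 to 0.79. The estimate was as low as 0.0042 without Mock replicate 1 and as high as 0.39 without Mock replicate 2. An interval of this width still holds a modest decrease, but not one of the size estimated for Gpi1 or Slc2a1. The ratio of Pfkfb4 to Pfkfb3 differed by 0.03 on the log2 scale (exact permutation test, p = 0.9).

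Of the promoter windows of Pfkfb3, the one at chr2:11502041-11502340 (minus strand) is shown because it held more of the searched letters than those printed above although the transcript did not pass the test.

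Pfkfb3: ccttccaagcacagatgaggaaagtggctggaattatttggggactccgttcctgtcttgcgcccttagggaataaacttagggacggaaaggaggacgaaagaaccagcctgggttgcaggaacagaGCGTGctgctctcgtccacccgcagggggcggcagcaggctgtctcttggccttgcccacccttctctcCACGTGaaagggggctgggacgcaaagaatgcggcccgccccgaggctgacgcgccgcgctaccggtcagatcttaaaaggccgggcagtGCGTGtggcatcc

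GCGTG lay on the strand of the gene at -122 to -118 and at 38 to 42, and ACGTG on both strands, overlapping, at -53 to -48. RefSeq gave 14 windows for 9 of the 10 genes, with none for Slc2a3. Among those not printed, a window of Hk1 held ACGTG 2 times and GCGTG 3 times. That of Hk2 held ACGTG 2 times and that of Pfkp GCGTG 4 times, and these 3 transcripts met the looser rule in the lower direction. A window of Pfkm, which did not meet it, held ACGTG 3 times. A relation between letters and change was not tested. ACGTG was found in 7 of the 14, GCGTG in 8 and either in 11. Over all 32851 mouse windows of this length the shares were 19.6%, 32.4% and 43.8%. The windows of 1 gene share sequence, and no test was made.

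**Figure D3:**
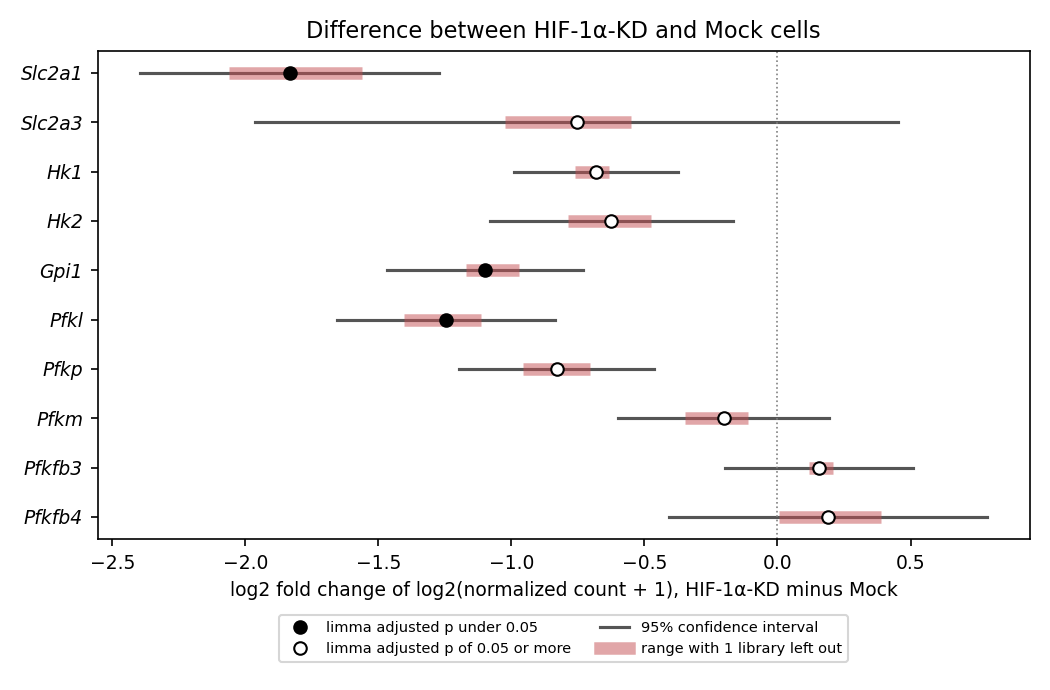
Difference between HIF-1α-KD and Mock cells for each transcript, as the log2 fold change of the normalized count plus 1, with its 95% confidence interval (line), the range over fits with 1 library left out (red band) and the call at a limma adjusted p under 0.05 (filled point). The filled points are Slc2a1 at -1.83, Pfkl at -1.25 and Gpi1 at -1.10, and the intervals of Slc2a3, Pfkm, Pfkfb3 and Pfkfb4 cross 0.

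Levels of different genes were compared per length, as FPKM. In Mock cells the order was Gpi1 (726 ± 57.2), Slc2a1 (390.5 ± 131), Pfkl (342.6 ± 68.6), Hk1 (136.2 ± 15.7), Pfkp (53.8 ± 0.411), Hk2 (39.3 ± 7.11), Pfkm (29.2 ± 4.66), Pfkfb3 (9.17 ± 0.458), Pfkfb4 (3.68 ± 1.13) and Slc2a3 (0.354 ± 0.113, SD, n = 3 for each). The libraries of Slc2a1 and Pfkl overlapped, and so did those of Hk2 and Pfkm. In HIF-1α-KD cells Gpi1 was at 354.4 ± 49.9, Pfkl at 149 ± 22.3 and Slc2a1 at 111.1 ± 20.2 (SD, n = 3), and the libraries of Pfkl and Slc2a1 overlapped. Below them Hk1 had 88.1 ± 6.28, and Pfkp at 31.9 ± 6.13, Hk2 at 26.6 ± 5.93 and Pfkm at 26.4 ± 4.13 FPKM overlapped with one another. Pfkfb3 at 10.6 ± 0.912, Pfkfb4 at 4.28 ± 0.704 and Slc2a3 at 0.2115 ± 0.0859 FPKM again closed the order.

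These levels depend on the gene width used by the authors, which for 6 of the 10 genes was shorter than the longest coding sequence in the GENCODE annotation. For Pfkl the width was 1350 bases against a coding length of 2340, and for Pfkm 2850 against 2340. Counted per coding length, Slc2a1 came before Pfkl in HIF-1α-KD cells too, where their libraries overlapped. Pfkm came before Hk2 in both groups, with overlapping libraries in Mock cells, and Pfkp moved behind both in HIF-1α-KD cells, where it overlapped with Hk2. The share of Pfkl was then 72.4% ± 4.61 in Mock and 60.9% ± 4.71 in HIF-1α-KD cells, and that of Pfkm 13.3% ± 2.65 and 23.0% ± 4.94 (SD, n = 3), again without overlap of the groups. Hk2 took 34.8% ± 2.88 and 35.8% ± 5.82 of hexokinase transcripts on that scale. Fold changes of a gene between groups do not use its width.

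Summed over the family, transporter FPKM in HIF-1α-KD cells was 28.5% of that in Mock cells, hexokinase FPKM 65.4%, Gpi1 48.8% and phosphofructokinase FPKM 48.7%, each without overlap of the groups. The PFKFB pair summed to 12.85 FPKM in Mock and 14.92 in HIF-1α-KD cells, with overlap. Together the 10 transcripts drew 0.244% to 0.280% of the reads in Mock and 0.112% to 0.137% in HIF-1α-KD libraries.

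No single HIF-1α-KD library was lowest throughout. Replicate 1, with the least Hif1a transcript, was the lowest of its group for 5 transcripts (Slc2a3, Hk1, Pfkp, Pfkfb3 and Pfkfb4). Replicate 2, with the most Hif1a transcript, was the lowest for Slc2a1, Hk2, Gpi1 and Pfkl. Some of these ranks were near ties. In replicates 2 and 1, Pfkl had 4461 and 4470 normalized counts and Slc2a1 3091 and 3187. Hk1 had 2661 and 2675 in replicates 1 and 3. A relation to the Hif1a level left was not tested. Replicate 3, with the highest leukocyte marker sum, was the highest of its group for 6 (Slc2a1, Slc2a3, Hk2, Gpi1, Pfkl and Pfkfb3). In Mock cells replicate 3 was the highest for 5 (Slc2a1, Hk1, Hk2, Pfkl and Pfkfb3) and replicate 1 the lowest for 6.

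**Figure D4:**
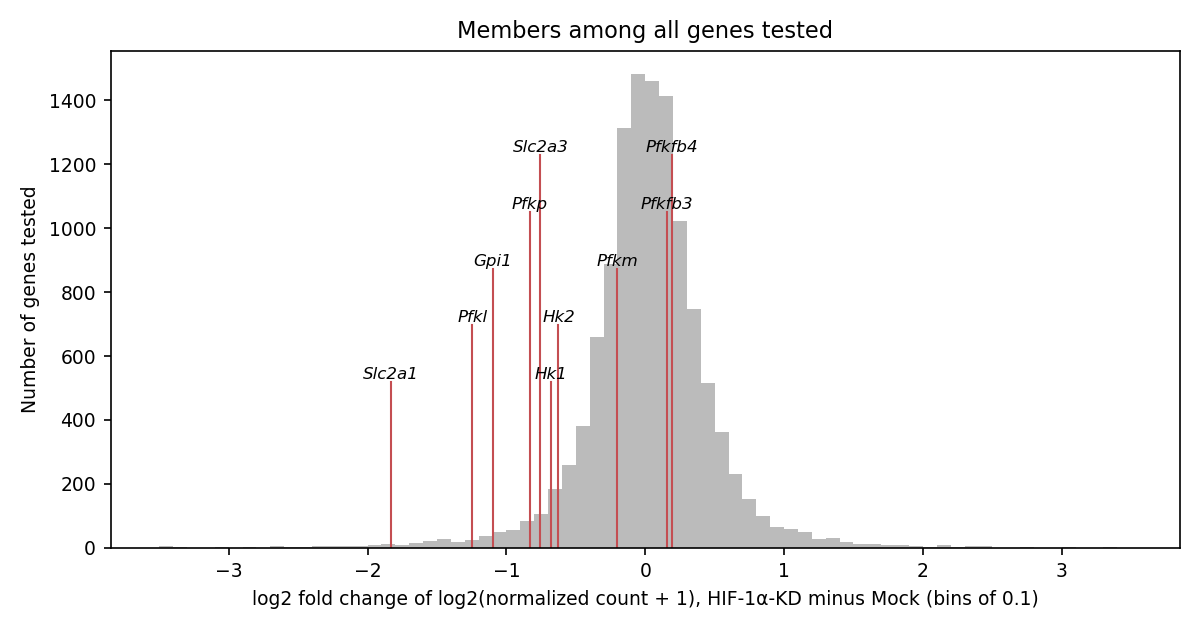
Number of genes tested in each bin of 0.1 log2 fold change (gray bars, HIF-1α-KD minus Mock, values beyond the axis put in the outermost bins), with the 10 transcripts as red lines whose height only separates the names. Slc2a1, Pfkl and Gpi1 lie in the left tail, Pfkp, Slc2a3, Hk1 and Hk2 at its shoulder, and Pfkm, Pfkfb3 and Pfkfb4 within the bulk of genes.

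Of 16 other transporters and glucose kinases, 8 were tested and 0 passed an adjusted p under 0.05 in either direction by limma or edgeR. At an unadjusted p under 0.05, which 12.7% of all genes tested met, there were 2. Slc2a13, a proton-coupled inositol transporter of the same family, had 72.63, 55.5 and 79.72 normalized counts in Mock against 86.87, 154.7 and 139.8 after knock-down (log2 fold change 0.84, limma unadjusted p = 0.0253, adjusted p = 0.339). In the other direction Slc2a8, singled out after its values were seen, had 268.4, 334.9 and 212.6 in Mock against 145.6, 165.5 and 120.1 after knock-down (log2 fold change -0.90, limma adjusted p = 0.2455). It encodes the intracellular transporter GLUT8. The most negative estimate of these 8 was that of Slc2a9, a urate transporter also picked after its values were seen, at -1.02 (adjusted p = 0.449 by limma), with 27.08, 21.05 and 18.12 normalized counts in Mock against 7.239, 8.393 and 17.33 after knock-down.

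Of 9 genes of fructose bisphosphate turnover and glucose release, 5 were tested and 0 passed after adjustment by limma or edgeR, with 1 at an unadjusted p under 0.05 (12.7% of all genes). Only Slc37a4, the glucose 6-phosphate translocase of the endoplasmic reticulum, met the looser rule, at a log2 fold change of -0.68 (limma adjusted p = 0.224). It was likewise singled out after its values were seen.

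Of 4 regulators of glucose sensing, 3 were tested and 0 passed by limma or edgeR, with 2 at an unadjusted p under 0.05 (12.7% of all genes). The same held for the 4 tested of 5 hypoxia regulators (Hif1a, Epas1, Hif3a, Arnt and Arnt2), with 0 passing and 2 at an unadjusted p under 0.05 against the same 12.7% of all genes. These 2 were Hif1a itself and, in the higher direction, Epas1, which encodes HIF-2α and was singled out after its values were seen. Epas1 had 25.85, 90.91 and 71.27 normalized counts in Mock against 117.4, 129.5 and 97.03 after knock-down (log2 fold change 1.03, limma adjusted p = 0.3925), and the estimate fell to 0.49 without Mock replicate 1. Mlxip, a glucose-sensing transcription factor, had a log2 fold change of 0.45 (limma unadjusted p = 0.0379, adjusted p = 0.379). Txnip, which curbs glucose uptake and was also singled out after its values were seen, had 9037, 7574 and 4654 normalized counts in Mock against 2563, 4167 and 4469 after knock-down (log2 fold change -0.91, limma adjusted p = 0.287). Its nearest libraries were almost equal.

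Downstream, 6 of the 12 tested genes of lower glycolysis (15 listed) were lower at a limma adjusted p under 0.05 and 0 higher (0.383% and 0.00832% of all genes), with a median log2 fold change of -1.03. Those with the smallest p were Tpi1 (log2 fold change -1.06, limma adjusted p = 0.0242), Pgam1 (-0.99, 0.0242), Pgk1 (-1.55, 0.0245), Ldha (-1.15, 0.0281) and Gapdh (-1.10, 0.0281). Without the filter on low counts, Ldha (limma adjusted p = 0.0538) and Gapdh (0.0664) did not pass. All 5 missed the threshold without Mock replicate 1, Mock replicate 3, HIF-1α-KD replicate 2 or HIF-1α-KD replicate 3 (limma adjusted p from 0.0609 to 0.139). With a replicate block all 5 missed it as well (limma adjusted p from 0.071 to 0.086). Ldhb, the subunit of lactate dehydrogenase that prevails in oxidative tissue, lay in the opposite direction at 0.55 (limma unadjusted p = 0.00728, adjusted p = 0.258). Slc2a1 had a more negative log2 fold change than each of these genes, while Pfkl and Gpi1 were within their range. Differences between the transcripts of upper and lower glycolysis were not tested.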

How the data were processed

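RNA of sorted MC-38 GFP tumor cells was measured in 3 Mock and 3 HIF-1α-KD libraries, grouped by their labels. Trimming, alignment with STAR and counting with featureCounts were done by the authors. The methods name GRCh38 and the labels GRCm38, and the genes carry mouse Ensembl identifiers. The normalized counts (a signal) were deposited as each gene's count over a factor of its library. The deposited FPKM values are per kilobase of the authors' width. The deposited GC content is a fraction, and the authors' own log2 ratio, p-value and false discovery rate were not used.

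Reads were recovered by removing the factor, and 100% of values up to 300 reads were then whole (tolerance 0.1). The normalized counts called for limma 3.58.1 (trend) on log2(normalized count + 1), two-sided, after filterByExpr (minimum count 10), with Benjamini-Hochberg adjustment over 12014 genes. edgeR 4.0.16 (47 genes lower, 0 higher) and DESeq2 1.42.0 (187 and 96) on the recovered reads were alternatives, with other scalings, filters and pseudocounts (0.1 and 10), a replicate block and each library left out. Levels per coding length were added after the data were seen. The fits were tested on a single draw of simulated data, in which each tool missed many of the changed genes. In that draw the share of false calls lay above the nominal rate with each tool and was highest with DESeq2. R 4.3.3 and Python 3.11.15 were used. Positions are from GENCODE (GRCm38), promoters from RefSeq (GRCm38.p6).

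Named were the 10 transcripts, Hif1a, and of the pathway lists the 5 lower and 3 higher genes with the smallest limma p. Slc2a8, Slc2a9, Slc37a4, Txnip and Epas1 fell outside this rule and were named after their values were seen. The genes and lists were chosen with earlier results of these data known.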

Additional observations from a re-analysis of the deposited data

How the results depend on the processing

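The log2 fold change of the 10 transcripts kept its sign in 140 of 140 alternative fits. The number of the 10 transcripts lower at an adjusted p under 0.05 was 3, and became 5 with DESeq2 (Hk1 and Pfkp added), 0 with a replicate block (6 by the looser rule) and between 0 and 1 with a library left out, where the 1 was Slc2a1 (without Mock replicate 2 or without HIF-1α-KD replicate 1). It stayed at 3 with edgeR, TMM or library size scaling, no filter and pseudocounts of 0.1 and 10. With the replicate block the limma adjusted p was 0.0514 for Slc2a1, 0.0649 for Pfkl and 0.0714 for Gpi1, and the same happened to Tpi1, Pgam1, Pgk1, Ldha and Gapdh. Over all genes tested, 46 lower and 1 higher became 187 and 96 with DESeq2, 0 and 0 with the block (1324 at an unadjusted p under 0.05), and 0 to 32 and 0 to 5 with a library left out. Whether the replicate numbers mark pairs is not stated. The deviations of same-numbered libraries correlated at -0.139, -0.123 and 0.0228, and those of differently numbered ones at -0.0716 to 0.162. With 3 libraries per group these values cannot decide it. Of the transcripts higher without overlap, 0 were left with TMM scaling. With a library left out, the Hk2 to Hk1 log2 ratio ranged from -0.13 to 0.24 and the Pfkfb4 to Pfkfb3 log2 ratio from -0.13 to 0.23 between groups, so neither has a fixed direction. The difference in the share of Pfkm grew from 5.93 to 9.74 percentage points with the coding length, an alternative chosen after seeing the data. Leaving out a library leaves fewer samples, and the cause of the other changes was not tested. TMM and library size scaling moved the median of all genes by -0.02 and 0.06 on the log2 scale. Depth limits Slc2a3, with 6 to 21 reads per library.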
